A study of Homo sapiens with 6 samples.

Results

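In SK-N-BE(2) neuroblastoma cells infected with a BRG1 hairpin lentivirus, 82 of 14883 named genes formed a strongly lowered set that spans metabolic enzymes, glycan and endoplasmic reticulum proteins, cell-cycle factors, receptors, secreted proteins and regulators of transcription. For each gene the brightest of its named probe sets was used, by the mean over all 6 arrays. A gene entered the set when its mean in shBRG1 cells lay at least 0.9 log2 units below its mean in NSC cells, its highest shBRG1 value lay below its lowest NSC value, and its NSC mean reached 5 on the log2 scale. These values gave 103 genes, 0.692% of all, of which 8 microRNA genes and 13 genes set aside by name were left out. The set is therefore the remainder of the strongly lowered genes, 80 of them protein-coding and 2 of them long noncoding RNAs. Because the values of this contrast chose the genes, their own differences are given below as a description, with no test.

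SK-N-BE(2) is an established human neuroblastoma line. Both groups received a lentivirus made from a pLKO vector, carrying the BRG1 hairpin (shBRG1, 3 arrays) or a non-silencing sequence (NSC, 3 arrays), and total RNA was taken 48 hours after infection, with 200 ng going to each array. All samples come from 1 cell line, no uninfected cells were included here, and 1 hairpin label stands for the knockdown. The design speaks of triplicate transduction but not of separate cultures or days, so every spread and p-value below measures only the variation between these samples.

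BRG1, the product of SMARCA4, is the ATPase of SWI/SNF complexes, which use the energy of ATP to slide or evict nucleosomes at promoters and enhancers and so alter which DNA is accessible to transcription factors. Neuroblastoma arises from sympathetic neural crest cells, and its cells depend on networks of lineage transcription factors acting through such enhancers. SMARCA4 itself has no named probe set in the annotation used, so its transcript was not analysed here and does not serve as a check of the labels.

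Of 14 measured sympathetic neuroblast markers, 13 reached an NSC mean of 5, among them PHOX2A, HAND2, TH, DBH and CHGB. The mean log2 level of the 14 lay between 9.09 and 9.15 across shBRG1 arrays, against 9.33 and 9.36 across NSC arrays, and 8 of them passed an adjusted p of 0.05 as lower while 6 did not pass. Of all genes with an NSC mean of at least 5, 12.0% were called lower and 16.7% higher. Of 6 measured fibroblast and mesenchymal markers, 4 reached that level (LUM, THY1, TWIST1 and SNAI2), and the mean of the 6 spanned 6.78 to 6.88 in shBRG1 arrays and 6.66 to 6.78 in NSC arrays, with 1 called lower and 2 higher. Among Schwann and glial markers only SOX10 of 5 measured genes reached 5, with array means of 4.0 to 4.03 in shBRG1 cells and 4.18 to 4.22 in NSC cells and 1 of the 5 called lower. Among blood and endothelial markers only CD68 of 5 did, and none of the 5 measured passed. The part of these marker levels in the differences below was not tested. In RNA from a whole culture, fewer cells of one kind and less RNA per cell cannot be told apart.

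Across the 82 genes the difference, shBRG1 minus NSC, ran between -1.68 and -0.91 with a median of -1.11 on the log2 scale, and the median corresponds to 2.16-fold lower. The median over all 14883 genes was 0.0059. In all, 53 of the 82 were lower by at least 2-fold. NSC means of the set spanned 5.43 to 11.3 and shBRG1 means 4.48 to 10.3, so the set holds dim as well as very bright transcripts. The distance between the lowest NSC value and the highest shBRG1 value was smallest for PGM2L1 at 0.39, largest for RPN2 at 1.60, and 0.94 at the median. All 82 passed an adjusted p of 0.05 as lower in limma, where 7.19% of all genes did, and 15.3% of all genes had every shBRG1 value below every NSC value. Both counts follow from how the set was chosen. The mirrored rule, a rise of 0.9 or more with no overlap and a shBRG1 mean of at least 5, held for 52 genes. No names were left out of that count, so it stands beside the 103 lowered genes and not the 82.

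**Figure D1:**
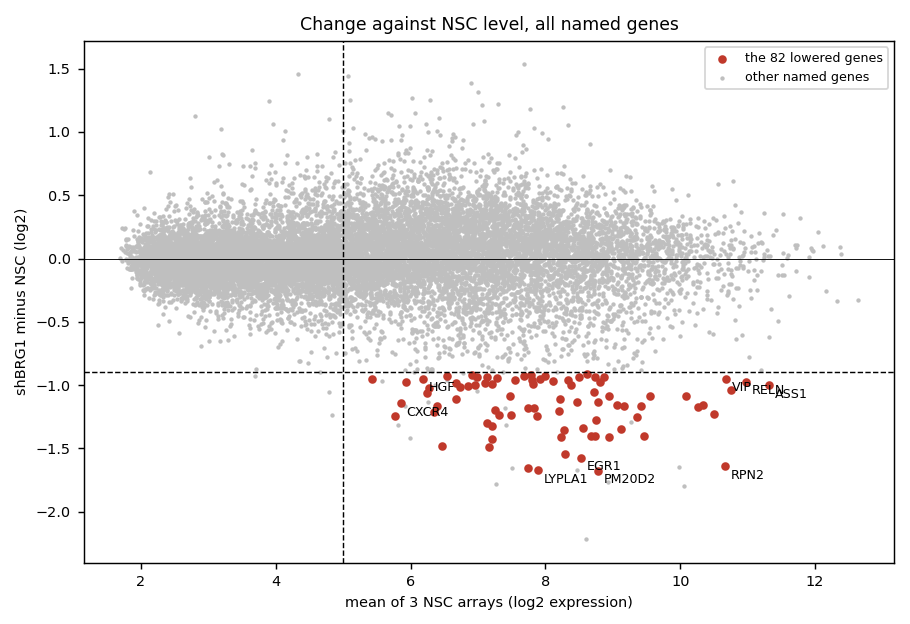
Each point is a named gene, with the mean of the 3 NSC arrays (log2 expression) on the horizontal axis and the difference shBRG1 minus NSC (log2) on the vertical axis; red points are the 82 lowered genes, grey points all other named genes, and dashed lines mark the thresholds of 5 and -0.9. The red points extend to ASS1 at an NSC mean of 11.3; the grey points below the lower dashed line are genes left out by name, microRNA genes or genes under the NSC threshold.

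The rule puts every member lower on each shBRG1 array, so the values by array are a description. Relative to the mean of the NSC arrays, the median of the 82 genes stood at -1.19, -1.05 and -1.10 on shBRG1 replicates 1, 2 and 3, against 0.042, -0.036 and 0.0017 on NSC replicates 1, 2 and 3. Replicate 1 gave the lowest of the shBRG1 values for 49 genes, replicate 2 for 9 and replicate 3 for 24. Within groups the set had a median SD of 0.099 in shBRG1 cells and 0.082 in NSC cells, while the 7610 genes with an NSC mean of at least 5 had medians of 0.079 in shBRG1 cells and 0.081 in NSC cells.

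**Figure D2:**
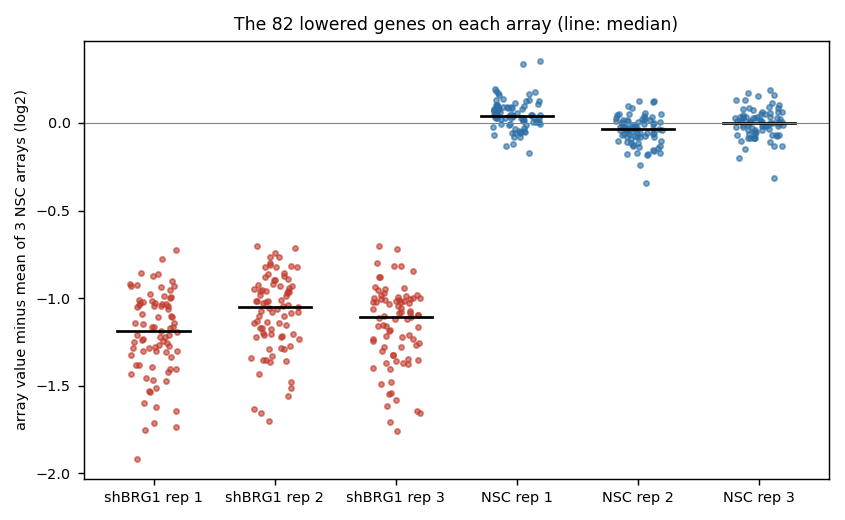
For each of the 6 arrays, points give the values of the 82 lowered genes minus each gene's mean over the NSC arrays (log2), and black lines the medians. The shBRG1 medians lie between -1.19 and -1.05 and the NSC medians close to 0.

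The threshold cut through a continuous range. Just inside it were STYX at -0.92, PDE9A at -0.92 and SYN2 at -0.91, and just outside it CEP135 at -0.898, JAZF1 at -0.896 and ZNF704 at -0.893. No gene past -0.9 failed on overlap between the groups, and 3 failed on the NSC level alone.

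Promoters of 4 members are shown because they hold letters of well-known regulatory elements: serum response elements for an immediate early gene, the TATA box for a neuropeptide gene and a chemokine receptor gene, and an E-box for a purine synthesis gene. Each line gives the 250 bases upstream of the first transcription start listed for the gene in RefSeq on GRCh38.p14, 5′ to 3′ on the gene's own strand. Capitals mark CArG boxes (CC, 6 bases of A or T, GG) in EGR1, TATAAA in VIP, CACGTG in PPAT, and the NRF1 motif together with overlapping TATAAA matches read on both strands in CXCR4. The 3 matches in VIP run from position -157 to -30 before the start, and all are marked alike, whatever their position. EGR1 lies at chr5:138465229-138465478 on the plus strand, VIP at chr6:152750547-152750796 on the plus strand, PPAT at chr4:56435616-56435865 on the minus strand and CXCR4 at chr2:136118150-136118399 on the minus strand.
EGR1: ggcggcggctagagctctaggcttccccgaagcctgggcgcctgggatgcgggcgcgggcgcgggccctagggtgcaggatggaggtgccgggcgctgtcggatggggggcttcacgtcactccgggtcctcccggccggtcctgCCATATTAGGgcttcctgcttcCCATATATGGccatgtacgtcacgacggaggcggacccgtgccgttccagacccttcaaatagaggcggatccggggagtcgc
VIP: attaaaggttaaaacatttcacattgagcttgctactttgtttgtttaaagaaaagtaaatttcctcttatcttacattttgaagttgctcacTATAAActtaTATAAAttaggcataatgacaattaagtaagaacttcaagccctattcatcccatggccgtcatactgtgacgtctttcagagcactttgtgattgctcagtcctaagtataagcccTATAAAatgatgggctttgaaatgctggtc
PPAT: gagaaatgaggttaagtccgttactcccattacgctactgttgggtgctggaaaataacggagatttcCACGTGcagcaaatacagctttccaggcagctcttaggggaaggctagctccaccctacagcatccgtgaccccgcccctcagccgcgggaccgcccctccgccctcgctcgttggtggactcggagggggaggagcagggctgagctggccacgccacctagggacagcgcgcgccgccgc
CXCR4: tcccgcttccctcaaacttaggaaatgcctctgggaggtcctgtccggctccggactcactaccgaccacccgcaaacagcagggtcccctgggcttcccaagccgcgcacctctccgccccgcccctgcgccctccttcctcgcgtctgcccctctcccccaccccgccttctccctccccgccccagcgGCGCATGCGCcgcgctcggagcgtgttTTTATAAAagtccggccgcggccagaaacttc

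The motif search covered a window of 250 bases before to 50 after the start, on both strands, for the 69 members with a RefSeq promoter entry and for 6012 other measured genes whose NSC mean reached 5. A CArG box, the element that serum response factor binds, was found in 1 of the 69 members (EGR1), or 1.45%, against 0.965% of the other genes. This search was added after the values were seen. TATAAA was found in 4 members (VIP, CXCR4, GPR22 and ADAMTS9-AS2), 5.80% against 5.09%. CACGTG, an E-box bound by MYC-family and clock factors among others, was found in 8 members, 11.6% against 10.4%. The GC box GGGCGG was present in 76.8% against 71.7%, CCAAT in 33.3% against 37.7%, AGATAA in 11.6% against 4.66%, and the ETS-type motif CCGGAAGT in 4.35% against 9.83%. The palindromic NRF1 motif was present in 3 members, 4.35% against 2.73%. CANNTG was present in 58.0% against 59.0%, CAGATG in 8.70% against 8.97%, TGANTCA in 2.90% against 3.74% and TGACGTCA in 4.35% against 3.48%. Every motif searched is given in this paragraph, and the differences in share were not tested. The YY1 motif and a paired homeodomain motif, found in 2.33% and 0.067% of the other genes, were found in 0 of the 69 windows, shares too low to read anything from a count of 0 in a set of this size. These are matches of letters and not evidence of binding. Median GC content of the windows was 69.3% for members and 65.7% for the other genes, and the median gene span was 44.6 kb for the 82 members and 26.6 kb for 7528 other genes at that NSC level.

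Metabolic enzymes formed a group of 11 genes, of which PM20D2 and LYPLA1 held the 2 lowest differences of the set. The group median was -1.0, where medians of the role groups ran from -1.33 (cell cycle and genome upkeep) to -0.96 (secreted factors and synaptic proteins). PM20D2, a peptidase that hydrolyses dipeptides made by side reactions of carnosine synthase, had log2 values of 7.07, 7.22 and 7.02 in shBRG1 cells, against 8.87, 8.82 and 8.65 in NSC cells. The difference was -1.68, with means of 7.10 ± 0.11 in shBRG1 cells and 8.78 ± 0.12 in NSC cells (SD, n = 3 each, as for every mean below). LYPLA1, the acyl-protein thioesterase that removes palmitate from proteins, had 6.15, 6.23 and 6.27 in shBRG1 cells, against 7.97, 7.79 and 7.92 in NSC cells, a difference of -1.67. PNPLA8, a calcium-independent phospholipase A2 of mitochondria and peroxisomes, had 5.91, 6.25 and 6.08 in shBRG1 cells, against 7.47, 7.18 and 7.29 in NSC cells, 2.35-fold lower. PPAT, which catalyses the committed step of purine synthesis, had 7.99, 7.94 and 7.86 in shBRG1 cells, against 8.89, 8.88 and 8.83 in NSC cells, 1.91-fold lower. The groups lay well apart for these 4 genes, with the closest shBRG1 and NSC values in PPAT and PNPLA8.

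The other 7 enzymes were lower by 1.91-fold to 2.37-fold. TPMT, which methylates thiopurine drugs, averaged 6.63 ± 0.048 in shBRG1 cells and 7.87 ± 0.053 in NSC cells. GLO1, the glyoxalase that clears methylglyoxal, averaged 9.18 ± 0.017 in shBRG1 cells and 10.34 ± 0.023 in NSC cells. ASS1, which joins citrulline and aspartate in arginine synthesis, was the brightest gene of the set and averaged 10.32 ± 0.039 in shBRG1 cells and 11.32 ± 0.0043 in NSC cells. Its NSC arrays were nearly identical. PLPP4, a lipid phosphate phosphatase, differed by -0.98, PIP4P2, a phosphatase of phosphatidylinositol 4,5-bisphosphate, by -0.96, and ASNSD1, a protein with an asparagine synthetase domain, by -0.93. PGM2L1, which makes glucose 1,6-bisphosphate, differed by -0.97 with the widest NSC spread among these enzymes, at 4.95 ± 0.24 in shBRG1 cells and 5.93 ± 0.34 in NSC cells.

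Lists of genes of the same pathways are counted by an adjusted p under 0.05 over all genes, where 7.19% of all genes were lower and 9.78% higher, and numbers in parentheses after a difference are limma adjusted p-values, or their range over the alternatives where a range is given. Among genes with an NSC mean of at least 5, a level most genes of these lists reached, 12.0% were lower and 16.7% higher. Of 34 measured genes of nucleotide metabolism, PPAT was the only one called lower, while 8 rose and 25 did not pass. PFAS and ATIC, which act after PPAT in the same purine pathway, rose: PFAS averaged 8.28 ± 0.099 in shBRG1 cells and 7.82 ± 0.033 in NSC cells, a difference of 0.46 ± 0.075 (SE, limma adjusted p = 0.00636), and ATIC 10.01 ± 0.06 in shBRG1 cells and 9.59 ± 0.04 in NSC cells, a difference of 0.41 ± 0.068 (limma adjusted p = 0.0068). AK5, an adenylate kinase, rose by 0.71 (limma adjusted p = 0.00283), and DHODH, of pyrimidine synthesis, by 0.56 (limma adjusted p = 0.00488). These 4 passed the same threshold under every alternative tried, but the count of genes called higher was 4 to 6 when single arrays were left out, and with cyclic loess scaling 4 were called lower and 6 higher. ADSL and IMPDH2, each called higher with all 6 arrays in the fit, lost the call without any 1 of the arrays, with adjusted p-values over the alternatives of 0.00485 to 0.124 and 0.00268 to 0.134.

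In the palmitoylation list, 6 genes were measured. Beside LYPLA1, ABHD10, a mitochondrial depalmitoylase, fell by 0.88 (limma adjusted p = 0.000617) with means of 6.32 ± 0.089 in shBRG1 cells and 7.20 ± 0.057 in NSC cells, just short of the size threshold of the set. PPT1, the lysosomal palmitoyl-protein thioesterase, rose, with means of 9.48 ± 0.083 in shBRG1 cells and 9.08 ± 0.047 in NSC cells, a difference of 0.40 (limma adjusted p = 0.00969). The other 3 did not pass. Of 16 measured hydrolases of dipeptides and N-acyl amino acids, 4 were called lower, PM20D2 included, 1 higher and 11 neither. DPP8, a cytosolic dipeptidyl peptidase, differed by -0.41 (limma adjusted p = 0.00621). Calls for CARNS1, the carnosine synthase (-0.57), PEPD (-0.27) and DPP7 (0.25) had adjusted p-values of 0.0363, 0.0439 and 0.048 in limma. Those of PEPD and DPP7 were lost whichever of the 6 arrays was dropped (over the alternatives 0.00126 to 0.131 and 0.00355 to 0.131), and that of CARNS1 without any array but NSC replicate 1 (0.0122 to 0.111).

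Of 28 measured glycerolipid and phospholipid enzymes, 3 were called lower, 3 higher and 22 neither. Beside PNPLA8 the lower ones were LPIN1, a phosphatidate phosphatase, at -0.47 (limma adjusted p = 0.00841), and CHPT1, a cholinephosphotransferase, at -0.62 (0.00924). LPCAT1, a lysophosphatidylcholine acyltransferase, rose by 0.42 (0.00801) and PEMT, which methylates phosphatidylethanolamine, by 0.44 (0.0106). CRLS1, cardiolipin synthase, was higher by 0.35 (0.0234), a call that was lost without any 1 array other than NSC replicate 1 (0.0039 to 0.0758).

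Regulators of transcription, chromatin and RNA formed the largest role group, with 13 genes. HABP4, an RNA-binding protein also found on dormant ribosomes of vertebrate eggs, had log2 values of 5.83, 6.24 and 6.21 in shBRG1 cells, against 7.88, 7.64 and 7.73 in NSC cells, 3.15-fold lower. Replicate 1 was its lowest shBRG1 array, and the groups did not approach each other. EGR1, the immediate early zinc finger factor whose promoter with both CArG boxes is printed above, had 6.78, 7.05 and 7.04 in shBRG1 cells, against 8.61, 8.65 and 8.33 in NSC cells, 2.98-fold lower. The other, dimmer probe set of EGR1 averaged 4.41 in shBRG1 cells and 5.68 in NSC cells, a difference of -1.27. The paralogous factors EGR3 and EGR4 were dim on these arrays, with NSC means of 4.12 and 3.77, and did not pass the test (limma adjusted p = 0.788 and 0.264).

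SCML1, a Polycomb-group-like protein encoded on the X chromosome, had 4.94, 5.12 and 4.92 in shBRG1 cells, against 6.46, 6.59 and 6.36 in NSC cells, 2.78-fold lower. Its shBRG1 values lay on either side of 5, and SCML2 differed by only 0.026 (limma adjusted p = 0.845). FYTTD1, an adaptor for mRNA export, had 7.48, 7.58 and 7.54 in shBRG1 cells, against 9.02, 8.89 and 8.93 in NSC cells, 2.66-fold lower. CLOCK, the histone acetyltransferase and bHLH-PAS partner of BMAL1, had 7.61, 7.63 and 7.69 in shBRG1 cells, against 8.84, 8.78 and 8.70 in NSC cells, 2.19-fold lower. The 3 values of each group were close together for FYTTD1 and CLOCK and far from those of the other group.

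The chromatin members also included MORC4, an ATPase of the MORC family, which averaged 5.13 ± 0.099 in shBRG1 cells and 6.35 ± 0.058 in NSC cells, and PCGF5, a subunit of Polycomb repressive complex 1, at 7.0 ± 0.033 in shBRG1 cells and 8.21 ± 0.17 in NSC cells. INO80C, a subunit of the INO80 nucleosome remodeller, averaged 6.06 ± 0.0099 in shBRG1 cells and 7.25 ± 0.10 in NSC cells, while INO80, the ATPase of that complex, was higher by 0.35 (limma adjusted p = 0.0257, 0.00294 to 0.0806 over the alternatives). The INO80 call was lost without shBRG1 replicate 2 or 3 and without NSC replicate 2 or 3. ACTR6, an actin-related subunit of the SRCAP remodeller, differed by -0.95. KLF10, a zinc finger factor induced by TGF-beta, differed by -1.0, and ZCRB1, a protein of the minor spliceosome, by -1.09. The noncoding RNAs FAM30A and ADAMTS9-AS2 differed by -1.11 and -0.95. ADAMTS9-AS2 was the dimmest gene of the set, and its signal cannot be told from that of its antisense partner without knowing the strand of the probes.

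CLOCK was the only one of 14 measured circadian genes called lower, against 3 higher and 10 neither, and with single arrays left out 1 to 2 were called lower and 2 to 4 higher. The higher ones were its partner BMAL1, with means of 5.14 ± 0.093 in shBRG1 cells and 4.58 ± 0.12 in NSC cells (limma adjusted p = 0.00608), DBP, an output factor of the clock, with 6.82 ± 0.031 in shBRG1 cells and 6.25 ± 0.15 in NSC cells (0.00586), and PER3 with 5.35 ± 0.16 in shBRG1 cells and 4.74 ± 0.20 in NSC cells (0.0145). The PER3 call was lost without shBRG1 replicate 1 or 3 (0.00456 to 0.0544 over the alternatives). CRY1, CRY2, PER1, PER2 and NPAS2 did not pass. Of 11 measured translation elongation and ribosome-bound factors, 3 were called lower with HABP4 among them, 1 higher and 7 neither. IFRD2, which occupies idle ribosomes, rose by 0.51 (limma adjusted p = 0.00417). EEF1A2 and EIF5A2 differed by -0.33 and -0.35 (0.0214 and 0.0226). The EEF1A2 call was lost without replicate 1 or 3 of either group (0.000329 to 0.0749), and that of EIF5A2 without any 1 array but shBRG1 replicate 1 (0.00112 to 0.074).

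**Figure D3:**
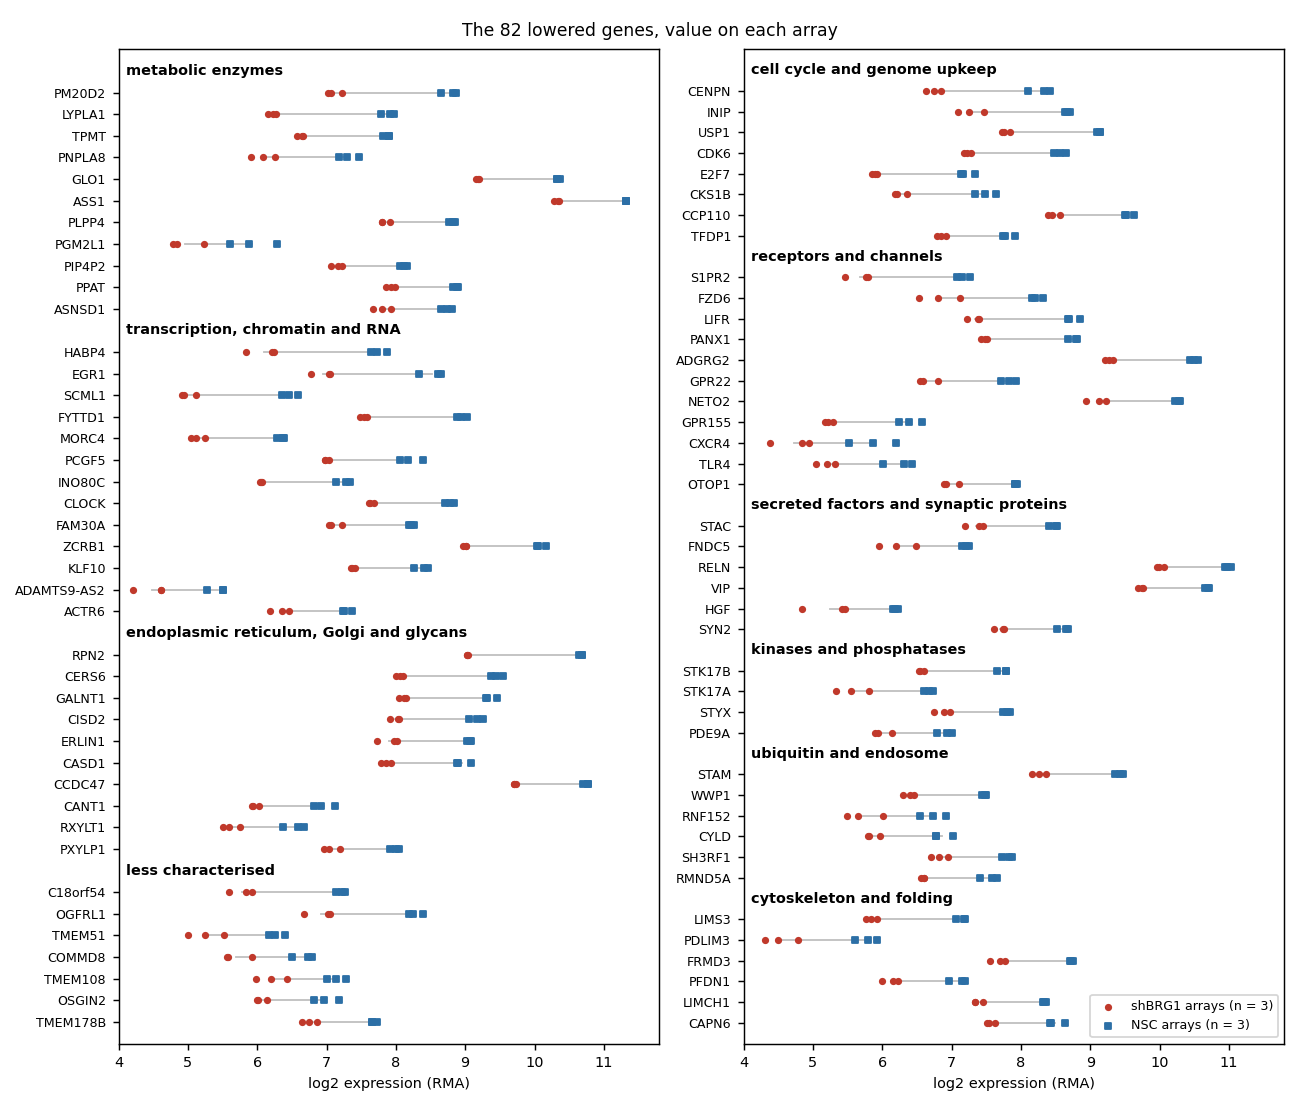
Log2 expression of each of the 82 lowered genes on every array, grouped by role; red circles are the 3 shBRG1 arrays, blue squares the 3 NSC arrays, and grey lines join the group means. No red circle lies to the right of a blue square of the same gene, and the narrowest distance is that of PGM2L1 at 0.39.

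The endoplasmic reticulum, Golgi and glycan group held 10 genes. RPN2, ribophorin II of the oligosaccharyltransferase that attaches N-glycans to nascent proteins, had log2 values of 9.03, 9.04 and 9.03 in shBRG1 cells, against 10.64, 10.69 and 10.68 in NSC cells. It was 3.12-fold lower, with the widest separation of the set and an SD of 0.0058 in shBRG1 cells and 0.026 in NSC cells. CERS6, a ceramide synthase that prefers palmitoyl-CoA, had 8.0, 8.10 and 8.06 in shBRG1 cells, against 9.55, 9.45 and 9.37 in NSC cells, 2.64-fold lower. The other probe set of CERS6, with an NSC mean of 4.43, differed by -0.87. GALNT1, which starts mucin-type O-glycans, averaged 8.10 ± 0.05 in shBRG1 cells and 9.35 ± 0.088 in NSC cells.

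The other 7 genes of this group were lower by 1.9-fold to 2.25-fold. CISD2, an iron-sulfur protein of the endoplasmic reticulum and outer mitochondrial membrane, differed by -1.17, and ERLIN1, a prohibitin-domain protein of the same reticulum, by -1.15. CCDC47, a chaperone-like factor for multipass membrane proteins, differed by -1.04. A further 4 genes act on glycans in the Golgi. CASD1, which O-acetylates sialic acid, differed by -1.09. CANT1, a nucleotidase needed for proteoglycan synthesis, differed by -1.0. RXYLT1, a xylosyltransferase of dystroglycan, differed by -0.93, and PXYLP1, a xylose phosphatase of the glycosaminoglycan linker, by -0.93.

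Of 24 measured genes for N-glycosylation and folding in the endoplasmic reticulum, RPN2 was the only one called lower, 5 were called higher and 18 neither. With cyclic loess scaling 2 were called lower and 3 higher. RPN1, the other ribophorin, averaged 10.49 ± 0.051 in shBRG1 cells and 10.44 ± 0.064 in NSC cells, a difference of 0.052 (limma adjusted p = 0.682). The subunits DAD1, OST4, MAGT1 and TUSC3 did not pass either. DDOST, a further subunit of the same enzyme, was higher by 0.24 (0.0467), SEC61A1, the translocon channel, by 0.30 (0.0158), DPAGT1 by 0.43 (0.0222), PRKCSH by 0.40 (0.0224) and DOLK by 0.27 (0.0322). None of these 5 calls held throughout. DDOST and DOLK lost theirs whichever of the 6 arrays was dropped (0.00866 to 0.143 and 0.00669 to 0.105 over the alternatives). SEC61A1 lost its call without shBRG1 replicate 1 or 3 or NSC replicate 1 (2.06e-05 to 0.0697), DPAGT1 without replicate 1 or 2 of either group (0.00362 to 0.0735), and PRKCSH without replicate 2 of either group (0.000777 to 0.0705).

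Of 19 measured sphingolipid enzymes, 3 were called lower, 1 higher and 15 neither. Beside CERS6 these were ACER3, an alkaline ceramidase, at -0.47 (limma adjusted p = 0.00383), and KDSR at -0.35 (0.0304). The KDSR call was lost without replicate 2 or 3 of either group (0.0083 to 0.0982). UGCG, which makes glucosylceramide from ceramide, rose by 0.41 (0.0079). The ceramide synthases CERS2, CERS3, CERS4 and CERS5 differed by 0.18, 0.016, -0.13 and 0.008, none past the test, where CERS6 stood at -1.40.

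**Figure D4:**
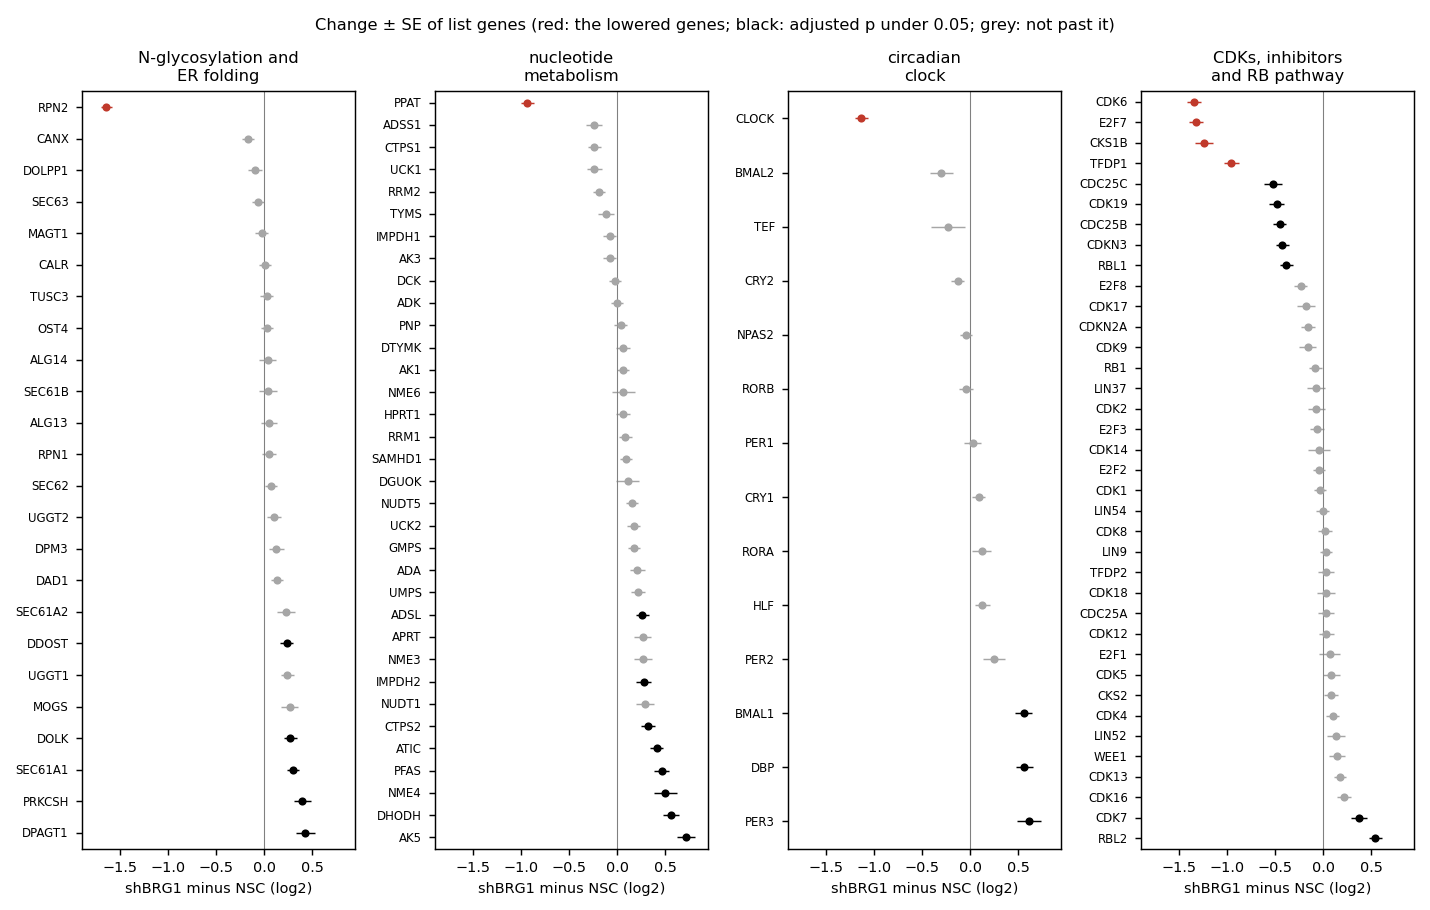
Differences shBRG1 minus NSC (log2) with the moderated standard error as bars for every measured gene of 4 lists; red marks the lowered genes, black other genes past an adjusted p of 0.05, grey genes not past it. RPN2, PPAT and CLOCK are each the only gene called lower in their list, except that 2 genes of the N-glycosylation list and 4 of nucleotide metabolism were called lower with cyclic loess scaling and up to 2 circadian genes with single arrays left out, while the list of CDKs and the RB pathway holds 4 of the lowered genes and 5 further genes called lower.

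The cell-cycle and genome upkeep group had 8 members. CENPN, which reads CENP-A nucleosomes at centromeres, had log2 values of 6.75, 6.85 and 6.63 in shBRG1 cells, against 8.33, 8.11 and 8.42 in NSC cells, 2.91-fold lower. INIP, a subunit of the single-stranded DNA sensor SOSS, had 7.25, 7.47 and 7.09 in shBRG1 cells, against 8.71, 8.67 and 8.64 in NSC cells, 2.64-fold lower. USP1, the deubiquitinase of FANCD2 and PCNA, had 7.73, 7.84 and 7.76 in shBRG1 cells, against 9.13, 9.10 and 9.15 in NSC cells, 2.55-fold lower. The distance between the lowest NSC and the highest shBRG1 value was 1.26 for CENPN, 1.17 for INIP and 1.26 for USP1.

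CDK6, a D-cyclin-dependent kinase that phosphorylates RB, had 7.18, 7.28 and 7.22 in shBRG1 cells, against 8.65, 8.57 and 8.48 in NSC cells, 2.53-fold lower. E2F7, an E2F factor that represses transcription, had 5.93, 5.85 and 5.89 in shBRG1 cells, against 7.14, 7.33 and 7.16 in NSC cells, 2.5-fold lower. CKS1B, the small CDK-binding subunit needed to degrade p27, had 6.19, 6.35 and 6.21 in shBRG1 cells, against 7.47, 7.34 and 7.65 in NSC cells, 2.36-fold lower. CKS1B varied among the NSC arrays, where replicate 2 was lowest and replicate 3 highest. TFDP1, the dimerisation partner of E2F factors, had 6.78, 6.85 and 6.93 in shBRG1 cells, against 7.75, 7.76 and 7.91 in NSC cells, 1.94-fold lower. CCP110, a centriole cap protein that restrains cilium formation, averaged 8.47 ± 0.091 in shBRG1 cells and 9.55 ± 0.07 in NSC cells.

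Of 37 measured CDKs, CDK inhibitors and RB pathway genes, 9 were called lower, 2 higher and 26 neither. Over all genes 7.19% were called lower and 9.78% higher, and 12.0% and 16.7% of genes with an NSC mean of at least 5. Of the 9, 4 are CDK6, E2F7, CKS1B and TFDP1, which the choice of the set fixes. The other 5 were CDC25B at -0.45 ± 0.069 (SE, limma adjusted p = 0.00506), CDK19 at -0.48 ± 0.077 (0.0061), the phosphatase CDKN3 at -0.42 ± 0.07 (0.00702), RBL1 at -0.38 ± 0.069 (0.0091) and CDC25C at -0.52 ± 0.097 (0.0106). All 5 passed an adjusted p of 0.05 under every alternative tried. RBL2, the p130 pocket protein of quiescent cells, rose, with means of 8.06 ± 0.087 in shBRG1 cells and 7.52 ± 0.021 in NSC cells (limma adjusted p = 0.00282). CDK7 was higher by 0.37 (0.0231), a call lost without replicate 1 or 2 of either group (0.00305 to 0.0731). CDK4, the nearest relative of CDK6, differed by 0.1 (0.361), TFDP2 by 0.029 (0.854), CKS2 by 0.084 (0.512) and E2F1 by 0.067 (0.739).

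Receptors and channels made up 11 members. S1PR2, a G protein-coupled receptor for sphingosine 1-phosphate, had log2 values of 5.76, 5.46 and 5.79 in shBRG1 cells, against 7.08, 7.26 and 7.15 in NSC cells, 2.81-fold lower. FZD6, a Frizzled receptor for Wnt ligands, had 6.80, 7.13 and 6.52 in shBRG1 cells, against 8.32, 8.21 and 8.16 in NSC cells, 2.66-fold lower. Its shBRG1 arrays spread more widely than its NSC arrays, with replicate 3 lowest and replicate 2 highest. LIFR, the receptor chain for leukaemia inhibitory factor, had 7.23, 7.40 and 7.38 in shBRG1 cells, against 8.85, 8.69 and 8.69 in NSC cells, 2.65-fold lower. PANX1, a large-pore ATP release channel, had 7.52, 7.42 and 7.49 in shBRG1 cells, against 8.80, 8.67 and 8.79 in NSC cells, 2.43-fold lower.

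CXCR4, the receptor for the chemokine CXCL12, was among the dimmer and more variable members and averaged 4.72 ± 0.29 in shBRG1 cells and 5.86 ± 0.34 in NSC cells, with replicate 3 the lowest shBRG1 array and replicate 2 the lowest NSC array. TLR4, the lipopolysaccharide receptor, averaged 5.19 ± 0.14 in shBRG1 cells and 6.25 ± 0.22 in NSC cells. ADGRG2, an adhesion G protein-coupled receptor, was bright, at 9.27 ± 0.055 in shBRG1 cells and 10.50 ± 0.054 in NSC cells, and so was NETO2, an auxiliary subunit of kainate receptors, at 9.10 ± 0.15 in shBRG1 cells and 10.27 ± 0.036 in NSC cells. The orphan receptor GPR22 differed by -1.18, the lysosomal cholesterol sensor GPR155 by -1.17 and the proton channel OTOP1 by -0.95.

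Secreted factors and synaptic proteins comprised 6 members, lower by 1.88-fold to 2.19-fold. HGF, the ligand of the receptor MET, had log2 values of 5.46, 5.42 and 4.83 in shBRG1 cells, against 6.19, 6.15 and 6.22 in NSC cells, 1.93-fold lower. Replicate 3 was far below the other shBRG1 arrays, and without that array HGF no longer met the size threshold. VIP, a neuropeptide made by sympathetic-lineage neurons, averaged 9.73 ± 0.036 in shBRG1 cells and 10.69 ± 0.032 in NSC cells, and RELN, the secreted guidance protein reelin, averaged 10.01 ± 0.052 in shBRG1 cells and 10.98 ± 0.043 in NSC cells. Both were among the brightest members. FNDC5, the precursor of irisin, differed by -0.99, STAC, an adaptor of voltage-gated calcium channels, by -1.13, and SYN2, a synapsin of synaptic vesicles, by -0.91.

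Among 44 measured cytokines, chemokines and growth factors, 6 were called lower with HGF, 1 higher and 37 neither. VEGFA averaged 6.14 ± 0.03 in shBRG1 cells and 6.64 ± 0.099 in NSC cells (difference -0.51, limma adjusted p = 0.0045) and the neuregulin NRG1 7.53 ± 0.086 in shBRG1 cells and 7.94 ± 0.079 in NSC cells (difference -0.41, 0.0114), and these calls held under every alternative tried. PGF differed by -0.71 (0.021), a call lost without NSC replicate 2 or 3 (0.00328 to 0.0638). ANGPT2 differed by -0.70 (0.0284) and lost the call without replicate 1 or 3 of either group (0.00808 to 0.0805). FGF2 differed by -0.55 (0.0498) and lost it without replicate 1 or 2 of either group (0.0191 to 0.144). GDF11 was higher by 0.31 (0.0158) and lost the call without shBRG1 replicate 1 or 3 (0.000743 to 0.067). The ligand of CXCR4, CXCL12, and that of LIFR, LIF, did not pass (limma adjusted p = 0.165 and 0.232).

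Ubiquitin and endosome proteins gave 6 members. STAM, which sorts ubiquitinated receptors as part of ESCRT-0, had log2 values of 8.15, 8.37 and 8.26 in shBRG1 cells, against 9.36, 9.42 and 9.48 in NSC cells, 2.24-fold lower. Its shBRG1 values spread over a wider range than its NSC values. The ubiquitin ligases WWP1, of the HECT class, and RMND5A, of the CTLH complex, differed by -1.09 and -0.96. The lysosomal ligase RNF152 differed by -1.02, the JNK scaffold and ligase SH3RF1 by -0.99, and CYLD, which removes linear and K63-linked ubiquitin chains, by -1.0. WWP2, the paralogue of WWP1, was higher by 0.28 (limma adjusted p = 0.0337, 0.0078 to 0.101 over the alternatives), a call lost whichever of the 6 arrays was dropped.

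Of 45 measured endosome, retromer, ESCRT and clathrin genes, 6 were called lower, 8 higher and 31 neither, and with single arrays left out 4 to 5 were called lower and 3 to 6 higher. With cyclic loess scaling 9 were called lower and 8 higher, so which count was larger depended on the scaling. The sorting nexins SNX4 and SNX3 fell by 0.70 and 0.64 (limma adjusted p = 0.00204 and 0.00204), while CHMP1B, of ESCRT-III, rose by 0.58 (0.00321) and EHD2 by 0.51 (0.00442). The ESCRT-0 partners of STAM were measured too. HGS was higher by 0.29 (0.0246) and STAM2, the paralogue of STAM, by 0.42 (0.0233). The HGS call was lost whichever of the 6 arrays was dropped (0.00487 to 0.0857), and that of STAM2 without any 1 array but NSC replicate 1 (0.00305 to 0.0759).

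The 6 cytoskeletal and folding members were led by LIMS3, with log2 values of 5.76, 5.92 and 5.84 in shBRG1 cells, against 7.17, 7.06 and 7.19 in NSC cells, 2.46-fold lower. LIMS3 is a LIM-domain gene related to the adhesion protein gene LIMS1 and has near-identical copies in the genome, so its signal is uncertain. Its other probe set, with an NSC mean of 4.87, differed by -0.74, and LIMS1 differed by -0.46 (limma adjusted p = 0.292). PDLIM3, an actinin-binding PDZ-LIM protein, averaged 4.53 ± 0.23 in shBRG1 cells and 5.78 ± 0.16 in NSC cells. FRMD3, a FERM-domain protein, averaged 7.67 ± 0.10 in shBRG1 cells and 8.73 ± 0.022 in NSC cells. The prefoldin subunit PFDN1 differed by -0.98, LIMCH1, an activator of non-muscle myosin II, by -0.96, and CAPN6, a calpain that lacks protease activity and stabilises microtubules, by -0.93.

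A group of 4 kinases, phosphatases and related enzymes completed the annotated members. STK17A and STK17B, paralogous kinases of the death-associated protein kinase family, were both members. STK17A averaged 5.56 ± 0.24 in shBRG1 cells and 6.67 ± 0.064 in NSC cells. STK17B averaged 6.56 ± 0.035 in shBRG1 cells and 7.74 ± 0.075 in NSC cells. The pseudophosphatase STYX differed by -0.92 and PDE9A, a cyclic GMP phosphodiesterase, by -0.92.

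Another 7 members are less characterised. C18orf54 had log2 values of 5.59, 5.92 and 5.84 in shBRG1 cells, against 7.27, 7.23 and 7.13 in NSC cells, 2.69-fold lower. OGFRL1, named for its likeness to the opioid growth factor receptor, had 6.68, 7.05 and 7.02 in shBRG1 cells, against 8.39, 8.25 and 8.19 in NSC cells, 2.56-fold lower. For both, replicate 1 was the lowest shBRG1 array. TMEM51, COMMD8, TMEM108, OSGIN2 and TMEM178B differed by -1.02, -0.98, -0.94, -0.94 and -0.93.

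For members whose symbol stem was shared by at most 20 measured genes, 189 relatives that are not members were measured, of which 15 (7.94%) were called lower and 19 (10.1%) higher, where 7.19% and 9.78% of all genes were. Only 90 of the relatives had an NSC mean of at least 5. Of these 13.3% were called lower and 17.8% higher, against 12.0% and 16.7% of all genes at that level. With single arrays left out, 10 to 13 of the 189 relatives were called lower and 7 to 13 higher. Lower calls outnumbered higher calls without shBRG1 replicate 2 (11 and 7), shBRG1 replicate 3 (10 and 7) or NSC replicate 2 (12 and 7). The counts were 11 lower and 12 higher without shBRG1 replicate 1, and equal without NSC replicate 1 (12) or NSC replicate 3 (13). With the replicate number as a block 11 were lower and 6 higher, and with cyclic loess scaling 21 were lower and 15 higher. Which count was larger thus depended on the fit. A single measured relative was found for 10 members, LYPLA1, HABP4, RPN2, CKS1B, NETO2, ERLIN1, TFDP1, OSGIN2, ADAMTS9-AS2 and WWP1, and of these relatives WWP2 alone passed the test. Relatives were matched by symbol alone, as with ADAMTS7P1 for the noncoding RNA ADAMTS9-AS2, and need not belong to the same gene family. CAPN5, the relative of CAPN6 with the lowest difference, averaged 7.19 ± 0.06 in shBRG1 cells and 7.99 ± 0.048 in NSC cells (difference -0.80, limma adjusted p = 0.000619). FRMD4B and FRMD5 fell by 0.74 and 0.45 (0.00298 and 0.00815) beside FRMD3, but FRMD4B was dim, with an NSC mean of 4.53.

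Several families held relatives on both sides. Among 11 relatives of FZD6, FZD5 fell by 0.58 (limma adjusted p = 0.00467) and FZD1, which was dim with an NSC mean of 4.11, rose by 0.63 (0.00998). The third call, FZD3 at 0.28 (0.0356), was lost without any 1 array but NSC replicate 1 (0.00217 to 0.103 over the alternatives). Among 17 relatives of GALNT1, GALNT6 fell by 0.49 (0.00425), which held under every alternative, while the calls of GALNT2 (-0.31), GALNT13 (-0.39), GALNT11 (0.41) and GALNT10 (0.58) were each lost without at least 3 of the arrays in turn, with adjusted p-values over the alternatives of 0.000211 to 0.0671, 0.00646 to 0.0782, 0.00222 to 0.068 and 0.0123 to 0.0858. Beside PDLIM3, PDLIM7 fell by 0.50 (0.00591) and PDLIM5 rose by 0.65 (0.00247). PLPP6, a relative of PLPP4, rose by 0.78 (0.00252). None of the 6 measured relatives of CXCR4 passed the test, but all were dim, with NSC means of 2.50 to 3.99.

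**Figure D5:**
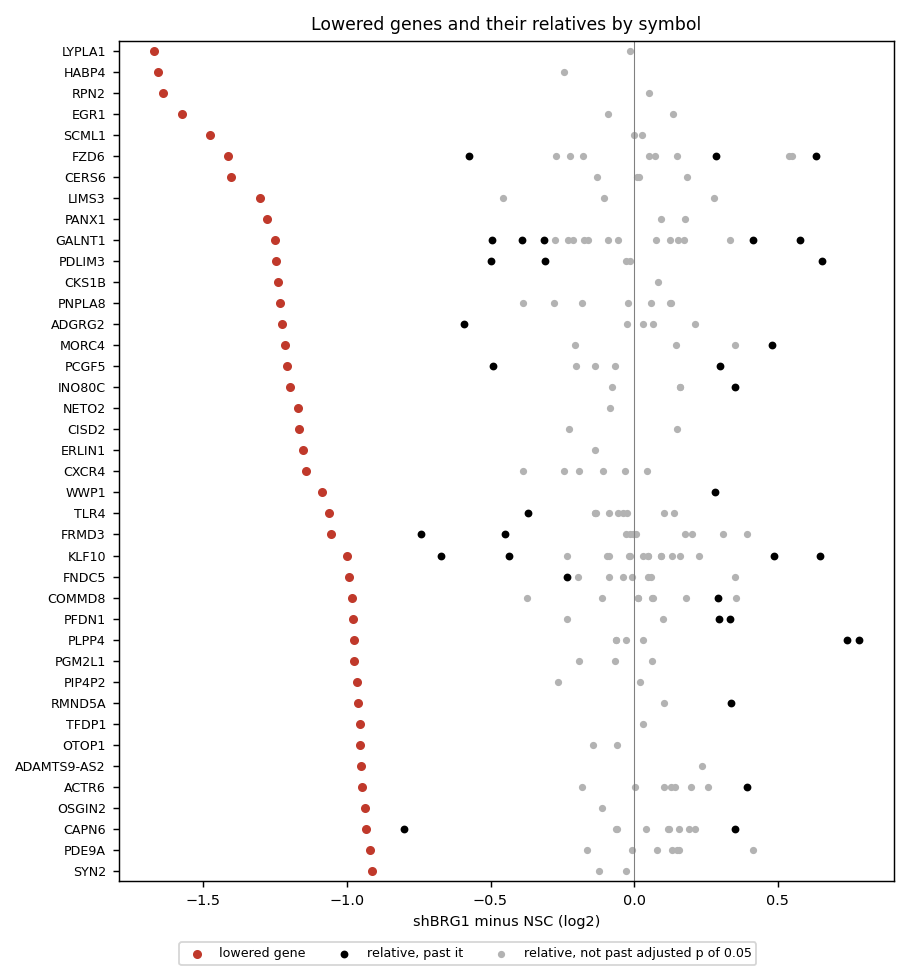
For each member with measured relatives by symbol, the red point is the member's difference shBRG1 minus NSC (log2), black points are relatives past an adjusted p of 0.05 and grey points relatives not past it. The relatives scatter around 0, with CAPN5 at -0.80 the lowest and PLPP6 at 0.78 the highest.

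The share of members among the measured genes was highest on chromosome 18, with 4 of 232 (1.72%), followed by chromosome 4 with 8 of 612 (1.31%) and chromosome 7 with 8 of 701 (1.14%), where the whole set makes up 0.551% of the measured genes. Chromosomes 15 and 22 held 0 and chromosome 19 held 1 of 1081. On chromosome 18, INO80C and GALNT1 were next to each other in the order of measured genes, and both were members. No other member had a member as its nearest measured neighbour.

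Of 162 nearest measured neighbours that are not members, 16 (9.88%) were called lower and 25 (15.4%) higher. Among the 84 of them with an NSC mean of at least 5, the shares were 16.7% and 23.8%, where 12.0% and 16.7% of all genes at that level were called. Without single arrays, 8 to 11 neighbours were called lower and 10 to 16 higher, and with cyclic loess scaling 20 lower and 18 higher, so the order of higher and lower counts turned with that scaling. Neighbours were found on both sides of 0. TRIM32 and BRINP1, on either side of TLR4 on chromosome 9, rose by 0.94 and 0.66 (limma adjusted p = 0.00301 and 0.00282). GDE1 beside CCP110 rose by 0.70 (0.00134), STRADA beside CCDC47 by 0.61 (0.00203), and AASDH beside PPAT by 0.48 (0.00449). SHC1 beside CKS1B fell by 0.63 (0.00282) and NBN, the double-strand break sensor, beside OSGIN2 fell by 0.63 (0.00204).

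Over the 11 lists that hold a member, 264 measured genes that are not members gave 25 (9.47%) called lower and 34 (12.9%) called higher, against 7.19% and 9.78% of all genes. Among the 210 of them with an NSC mean of at least 5, 11.4% were called lower and 15.2% higher, against 12.0% and 16.7% of all genes at that level. With the members counted, 39 were lower and 34 higher, and with cyclic loess scaling 49 lower and 29 higher. How far the higher calls stood above the lower ones thus depended on the scaling. The number called higher was 19 without shBRG1 replicate 2 or without NSC replicate 2 and 20 without shBRG1 replicate 1 or 3.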

How the data were processed

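Total RNA of 3 shBRG1 and 3 NSC samples was hybridised to 1 Affymetrix array each. The authors deposited 1 log2 value per probe set and array. The submitters' processing notes name RMA with oligo 1.27 and R 3.1.0. RMA equalises the probe intensities of the arrays before it summarises probe sets, so a global shift in RNA can be hidden, and differences of dim and saturating probe sets are compressed. The number of arrays limits the precision (median standard error of a difference 0.091). Array medians of the deposited values still lay between 3.77 and 3.84. Scanner files and array batches were not analysed here, and the sources name no genome build for the probes.

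A platform annotation gave 15828 of 52299 probe sets 1 gene symbol, 0 several and 36471 none. All 15828 symbols were updated through gene identifiers of the RefSeq GRCh38.p14 gene table. Keeping the brightest probe set per gene gave 14883 genes and dropped 945 further probe sets. Of the 82 members, 79 have 1 named probe set. Differences are shBRG1 minus NSC. The test was limma 3.58.1 (R 4.3.3, default lmFit and eBayes, two-sided, no covariates), with p-values adjusted by Benjamini and Hochberg over all 14883 genes and a threshold of 0.05. With 3 arrays a side, 0.1 is the smallest p that exact permutation allows. On simulated data for 14883 genes the fit recovered 71 of 100 changes of -0.5 and 99 of 100 changes of -1, with 6 false calls. The simulated noise was normal and independent between genes and arrays, with variances taken from the fit itself. Effects shared by many genes of an array or culture were absent, so the 6 false calls do not measure those in the real data.

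The members, gene lists, markers and named-gene rule were chosen with earlier results of these data known, from textbook knowledge for the lists. Every member is named, values on all arrays are given for the 20 with the lowest differences and for members in a list, and up to 4 further genes with the smallest p are named per list. Where a count was small, the remaining called genes, and the ligands, subunits and paralogues set beside a member, were named after their values were seen. Relatives share a symbol stem of at least 3 letters, and neighbours are the nearest measured genes in the gene table. Promoters came from RefSeq, first listed start, for 69 of 82 members. Alternatives were median centring, cyclic loess, averaged probe sets, each array left out, a replicate block, trend and robust options, array weights, removal of dim genes and other thresholds.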

Additional observations from a re-analysis of the deposited data

How the results depend on the processing

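The rule gave 82 genes, 53 with a threshold of -1, 115 with -0.8, 78 to 92 when 1 array was left out, 81 after median centring (SYN2 lost) and 104 after cyclic loess, which held all 82. The median difference was -1.14 to -1.07 without 1 array. Of 738 recomputed member differences over 9 alternatives, 718 moved by less than the spread between replicates, 20 by more and 0 reversed. That spread is the pooled SD of the 2 groups, and leaving out 1 of 3 arrays cannot move a difference further. Nor can it reverse a difference between groups that do not overlap. Averaging probe sets changes nothing for the 79 members with 1 named probe set. Much of this count was therefore fixed in advance and does not measure stability. The 1070 genes called lower became 694 to 859 without 1 array (694 without shBRG1 replicate 1 and 700 without shBRG1 replicate 3) and 523 at an adjusted p of 0.01. The 1455 called higher became 840 to 1055 without 1 array (840, 900, 904 and 939 without shBRG1 replicate 2, NSC replicate 2, shBRG1 replicate 3 and shBRG1 replicate 1), 563 at an adjusted p of 0.01 and 870 with the replicate number as a block, where 738 were called lower. Same-numbered samples did not deviate together (r = -0.044, -0.14 and -0.033), so the numbers were not taken as pairs. Calls were 57.6% higher as fitted, 61.2% after median centring and 47.7% after cyclic loess. Over the 11 lists with a member, 39 genes called lower became 30 to 34 and 34 called higher became 19 to 26 without 1 array. After cyclic loess 49 genes of these lists were called lower and 29 higher. The cause of these changes was not tested, beyond the fewer samples of each fit without 1 array. Genes near the floor of the arrays have compressed differences, so members with shBRG1 means under 5 may be understated. Choosing members by their measured difference acts the other way, so variable members may also be overstated. PGM2L1 and ADAMTS9-AS2, both with shBRG1 means under 5, no longer met the rule without shBRG1 replicate 1. The size of either effect was not tested.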

Other observations

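Among lists that hold none of the 82 genes, RAS and MAPK signalling had 9 of 25 measured genes called lower and 16 not past the test, and without single arrays 5 to 9 were called lower, with 5 without shBRG1 replicate 1 or 3 and 6 without NSC replicate 1. Of 30 genes for actin assembly, myosins and septins, 9 were called lower and 21 did not pass, and without single arrays 5 to 7 were called lower, with 5 without shBRG1 replicate 1, shBRG1 replicate 3 or NSC replicate 1 and 6 without NSC replicate 2 or 3. Of 40 genes for mitochondrial import, dynamics and membrane shaping, 1 was called lower, 12 higher and 27 neither, and dropping any 1 of the 6 arrays left 5 to 7 called higher. Of 34 genes for aminoacyl-tRNA synthetases and tRNA modification, 8 were called higher and 26 did not pass, and dropping any 1 of the 6 arrays left 4 to 5 called higher. Median centring gave 6 lower genes in the actin list, and cyclic loess scaling 8 higher in the mitochondrial list. Over all genes, 7.19% were called lower and 9.78% higher in limma at an adjusted p of 0.05. Among genes with an NSC mean of at least 5 the shares were 12.0% and 16.7%. These lists were picked for their counts from those of the 34 lists that hold none of the 82 genes, and were not tested as sets.

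Probe sets with no gene symbol were left out of the report. Of 36471 such probe sets, 9142 had an NSC mean of at least 5, 117 met the values of the rule for lowered genes, with a lowest difference of -2.62, and 94 met the mirrored values for raised genes.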
